A study of Homo sapiens with 12 samples.

Results

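The comparison described here is the zinc response of Caco-2 cells transfected with siRNA against MTF1. It sets 3 arrays of cells in high zinc (150 µM) with MTF1 siRNA against 3 arrays of cells in low zinc (3 µM) with MTF1 siRNA, chosen by their sample titles, out of the 12 arrays of the study. The other 6 arrays carry the same zinc concentrations with a negative control siRNA. Caco-2 is a long-established cell line of epithelial character, derived from an adenocarcinoma of the human colon. All 12 samples were transfected with lipofectamine RNAiMAX, so both groups compared here share the transfection and the MTF1 siRNA and differ in zinc. The sources used here do not give how long the cells were kept in zinc or after transfection, and nothing says that the arrays of a group came from separate cultures. The p-values therefore measure the spread between these samples, which may be technical.

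MTF1 (metal-responsive transcription factor 1) senses free zinc through its own zinc fingers. On binding zinc it enters the nucleus and activates genes that carry metal response elements, above all the metallothioneins and the zinc exporter SLC30A1 (ZnT1). Metallothioneins are small cysteine-rich proteins that chelate zinc and copper, and ZnT1 removes zinc from the cell, so both buffer the zinc that other proteins meet. An siRNA lowers its target's transcript and usually does not remove it.

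Each array measured 47323 probes, of which 18191 to 19469 per array were detected, meaning that their detection p-value against negative controls was under 0.05. Values are normalized log2 intensities, a difference of 1 being a doubling, and levels of different probes cannot be set against each other. Genes were tested over 14285 features, 10584 of them named genes, with limma and Benjamini-Hochberg adjusted p-values (threshold 0.05). A gene is said to have risen or fallen where it passed. Of the 14 Caco-2 and intestinal epithelium markers with a probe, 10 were detected on all 6 arrays compared, among them EPCAM, CDH1, CDX2 and VIL1, and LGALS4 was detected on none. Of 14 immune markers 4 were detected on all 6 arrays, CD14, CD68, CSF1R and LYZ. PTPRC, the marker of all leukocytes, was detected on none. Of 9 endothelial markers 1 was detected on all 6, CDH5, and PECAM1 and VWF were detected on none. Of 13 fibroblast and mesenchyme markers 9 were detected on all 6, COL1A1, COL1A2, COL3A1, COL6A3, FN1, LUM, PDGFRA, SPARC and VIM. DCN, PDGFRB and THY1 were detected on none.

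MTF1 itself did not pass the test of the zinc response. With MTF1 siRNA its level was 5.61, 6.25 and 5.31 on the high-zinc arrays, against 6.28, 5.69 and 5.72 on the low-zinc arrays. The groups overlapped, and the difference was -0.17 ± 0.22 (SE of the fit; limma, adjusted p = 0.662). At high zinc MTF1 was lower with MTF1 siRNA than with control siRNA by a log2 difference of -0.98 (adjusted p = 0.0483; 1.9% of genes were called), a call lost without any 1 of 10 of the 12 arrays. At low zinc the difference between the siRNAs was -0.71 (adjusted p = 0.201; 0.119% of genes were called). On the arrays the transcript thus remained above background in all 6 samples with MTF1 siRNA. It lay near background on high-zinc replicate 3, at 5.31 against a lowest detected level of 5.20 on that array. The size of the difference at high zinc depended on the processing, and was -0.37 without background correction. The depth of the knockdown in protein was not measured.

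Zinc changed 2244 of the 14285 features tested in cells with MTF1 siRNA, 15.7% of them. They were 832 named genes that rose, 1036 named genes that fell and 376 unnamed probes. Counts of genes over all 14285 features include unnamed probes, which may repeat a gene. Of the 2244, 1028 rose (7.2%) and 1216 fell (8.51%), and 1168 changed at least 1.5-fold (8.18%). The rises reached further than the falls. The median log2 change was 0.66 among genes that rose and -0.56 among genes that fell, 50 genes rose at least 4-fold and 6 fell at least 4-fold. Among the genes tested, 133 were detected on all 3 high-zinc arrays and on no low-zinc array, and 106 showed the opposite pattern. Of these, 70 and 43 are named and passed. A probe could enter by detection in 1 group alone, and some lay close to the detection threshold. Among the 70, the least possible fold ran from 1.05 for CIZ1 to 43.9 for HSPA6, so these are not counts of genes switched on or off. The 3 high-zinc arrays did not overlap with the 3 low-zinc arrays for 5038 genes (35.3%), more than were called, so separated arrays alone are weak evidence for a gene here. The median log2 change of all genes was -0.01. Counts in the gene lists below stand beside the 7.2% of all genes that rose and the 8.51% that fell. No list was tested against these shares.

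**Figure D1:**
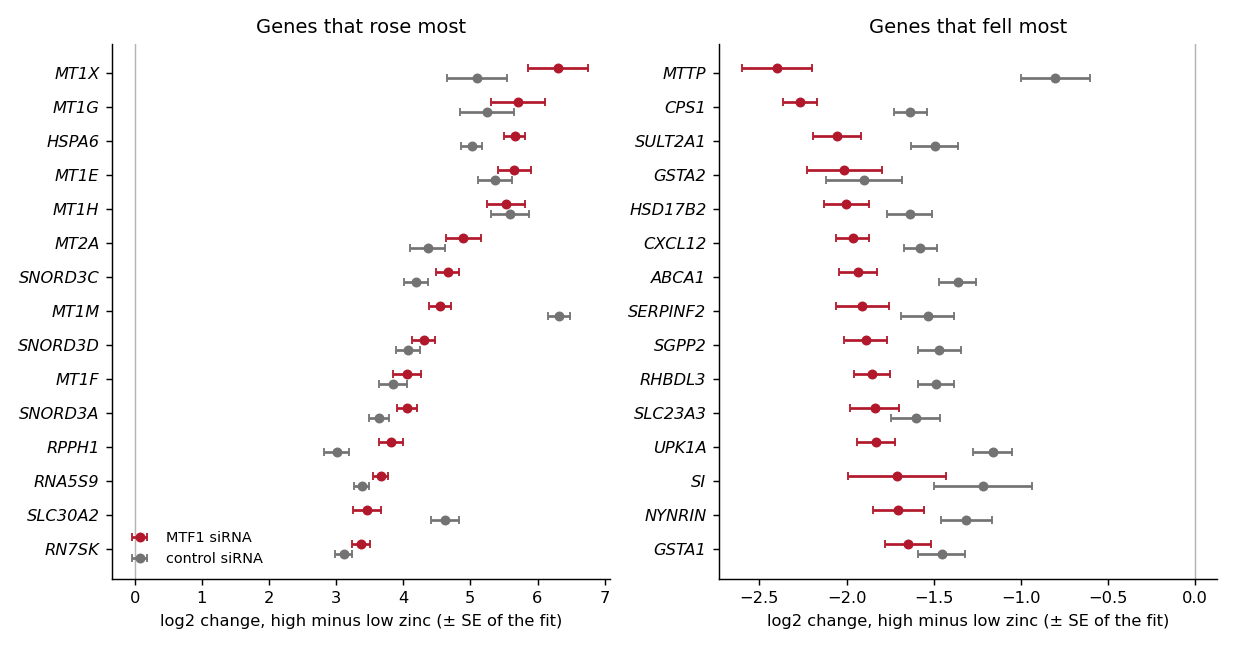
The 15 named genes that rose most (left) and the 15 that fell most (right) in cells with MTF1 siRNA, by log2 change at high minus low zinc with the SE of the fit (red), beside the same genes with control siRNA (grey). Rises reach 6.30 for MT1X and falls reach -2.40 for MTTP, and MT1M stands out by a smaller rise with MTF1 siRNA (4.55) than with control siRNA (6.32), sizes that rest on background at low zinc, where 0 of 3 arrays with MTF1 siRNA and 1 of 3 with control siRNA detected it.

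The metallothioneins led the genes that rose. All 8 members tested passed, with log2 changes from 3.09 for MT1B to 6.30 for MT1X and a list median of 5.21, beside -0.01 for all genes tested. All 8 lie on chromosome 16. Promoter windows of 300 bases are shown for members that differ in their response, from 250 bases before to 50 after the RefSeq start (GRCh38.p14), with the core of the metal response element, TGCACNC or TGCGCNC on either strand, in capitals. The MT1X window is chr16:56682220-56682519 (plus strand) and the MT1B window is chr16:56651636-56651935 (plus strand).
MT1X promoter: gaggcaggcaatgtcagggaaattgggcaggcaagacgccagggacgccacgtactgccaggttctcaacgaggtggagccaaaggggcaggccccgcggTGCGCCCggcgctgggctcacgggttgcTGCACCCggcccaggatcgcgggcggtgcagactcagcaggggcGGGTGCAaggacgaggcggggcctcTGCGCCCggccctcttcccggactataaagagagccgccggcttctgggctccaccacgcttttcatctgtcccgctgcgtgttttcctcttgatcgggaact
MT1B promoter: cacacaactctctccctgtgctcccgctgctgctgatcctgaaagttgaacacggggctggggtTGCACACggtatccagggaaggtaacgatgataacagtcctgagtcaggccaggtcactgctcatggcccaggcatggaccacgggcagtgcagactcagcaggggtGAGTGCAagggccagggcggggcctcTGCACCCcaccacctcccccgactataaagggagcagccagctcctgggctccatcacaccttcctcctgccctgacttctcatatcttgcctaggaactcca
The MT1X window holds 4 such matches and the MT1B window 3. The 4 tested metallothioneins with a RefSeq promoter here (MT1B, MT1H, MT1X and MT2A) all hold at least 1 match. The core is short and common: it occurs in 29.6% of all 35116 promoters, in 38.9% of those of named genes tested, in 38.9% of those that rose and in 38.2% of those that fell.

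MT1X had levels of 13.65, 13.52 and 13.47 on the high-zinc arrays, against 6.06, 8.43 and 7.23 on the low-zinc arrays. The 3 high-zinc arrays lay close together and far above all low-zinc arrays, which were spread widely. The rise was 6.30 ± 0.44 (SE), or 79.0-fold (limma, adjusted p = 1.82e-06). MT2A, the most widely expressed isoform, stood at 14.14, 14.11 and 14.06 at high zinc and at 8.66, 9.88 and 9.08 at low zinc, a rise of 4.90 ± 0.26 (adjusted p = 1.77e-07). MT1G rose by 5.71, MT1E by 5.65, MT1H by 5.53 and MT1F by 4.06, in each case with no overlap between the groups; MT1H was detected on 2 of the 3 low-zinc arrays. A second MT1H probe, detected on 1 of the 6 arrays, gave 0.04. For 7 of the 8 metallothioneins the low-zinc replicate 2 was the highest of the 3 low-zinc arrays, and without each array in turn the rise of MT1X ranged from 5.71 to 6.90.

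MT1M and MT1B started below background. MT1M read 9.15, 9.15 and 8.99 at high zinc, against 4.42, 4.80 and 4.41 at low zinc, where no array detected it. By limma it passed with an adjusted p of 1.1e-08, and its rise was at least 14.8-fold. MT1B read 7.77, 7.83 and 7.83 at high zinc, against 4.61, 4.77 and 4.78 at low zinc, again below background, and rose at least 6.08-fold (adjusted p = 1.59e-08). In a bound of this kind the bright group is set against the lowest detected signal of each array. Metallothionein genes are nearly identical in sequence, so that probes may read one another's transcripts and the members are not independent measurements.

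**Figure D2:**
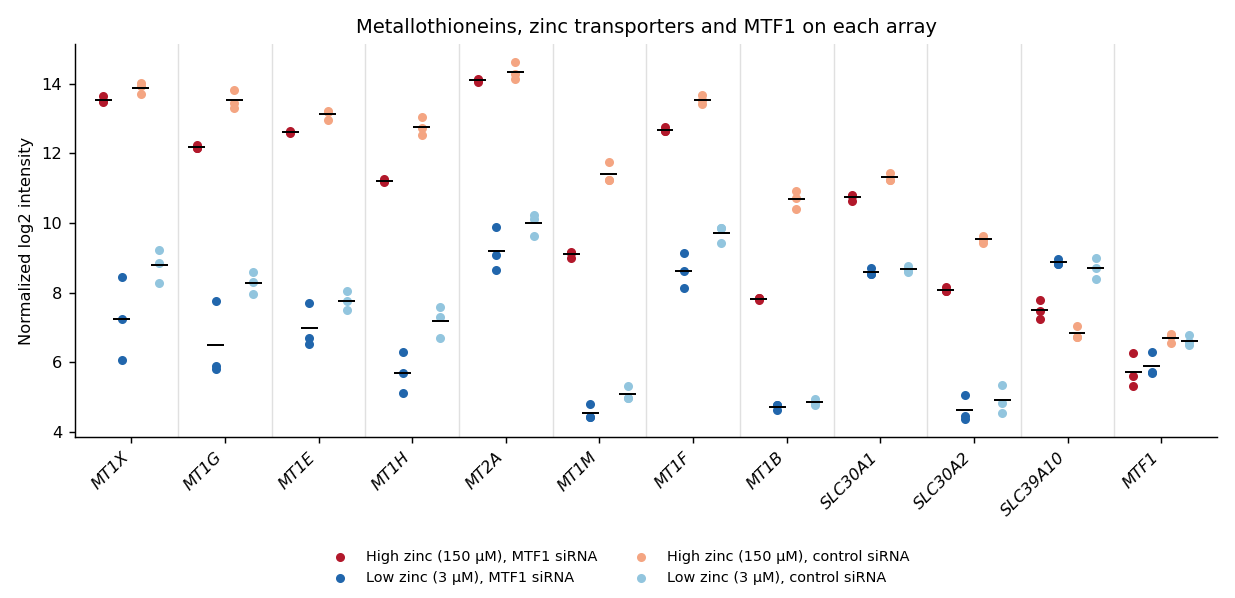
Normalized log2 intensity of the 8 metallothioneins, 3 zinc transporters and MTF1 on each of the 12 arrays, with group means as bars. Within each gene the groups run from high zinc and low zinc with MTF1 siRNA to high zinc and low zinc with control siRNA; the high-zinc arrays with MTF1 siRNA lie above all low-zinc arrays for each metallothionein, SLC30A1 and SLC30A2, and below them for SLC39A10.

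Some zinc transporters of both families passed the test. Of 7 SLC30 exporters tested 2 rose and none fell (list median 0.11), and of 10 SLC39 importers 4 fell and none rose (list median -0.18). SLC30A1 read 10.64, 10.77 and 10.80 at high zinc, against 8.54, 8.70 and 8.53 at low zinc. The groups were well apart, with a rise of 2.15 ± 0.10 (SE), or 4.43-fold (limma, adjusted p = 4.48e-08), and a second probe gave 2.12. SLC30A2, which loads zinc into vesicles, read 8.15, 8.06 and 8.05 at high zinc, against 4.36, 5.06 and 4.45 at low zinc, where it was below background. It rose at least 7.34-fold (adjusted p = 4.92e-07), while a second probe detected on 1 of the 6 arrays gave 0.35. The SLC30A1 window, chr1:211579112-211579411 (minus strand, printed 5′ to 3′ along the gene), is shown as the second gene known as a target of MTF1.
SLC30A1 promoter: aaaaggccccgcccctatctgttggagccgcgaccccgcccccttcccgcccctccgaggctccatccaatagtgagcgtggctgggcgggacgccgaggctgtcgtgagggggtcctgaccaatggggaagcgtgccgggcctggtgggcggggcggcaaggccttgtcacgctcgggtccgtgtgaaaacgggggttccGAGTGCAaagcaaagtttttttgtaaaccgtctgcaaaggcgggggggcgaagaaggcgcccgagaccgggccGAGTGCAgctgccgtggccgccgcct
It holds 2 matches to the same core, one of them past the start. The importer SLC39A10 (ZIP10) read 7.25, 7.47 and 7.77 at high zinc, against 8.82, 8.96 and 8.83 at low zinc, and fell by 1.38 ± 0.17 (adjusted p = 2.06e-04). SLC39A8, which also carries manganese, fell by 1.13, the intestinal basolateral importer SLC39A5 by 0.85 and SLC39A11 by 0.64. Of 11 copper-handling genes 2 fell, the copper exporter ATP7B by 1.32 and the ferrireductase STEAP3 by 1.08. Of 14 iron-handling genes 3 fell, led by transferrin (TF, by 1.19), and none rose in either list. The shares that fell were 18.2% for copper and 21.4% for iron, beside 8.51% of all genes, and 7.2% of all genes rose. In lists this short such counts lie within a few genes of those shares, and the contrast was not tested. The iron count ranged from 2 to 5 without each array in turn, with 5 called without high-zinc control siRNA replicate 2. Under the other alternative settings it ranged from 2 to 6, and the copper count from 2 to 5.

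Heat shock genes were among those that rose, led by HSPA6. Of 12 HSP70 and HSP110 genes 8 rose and none fell, with a list median of 0.66. HSPA6, an HSP70 that unstressed cells barely express, read 10.67, 10.61 and 10.71 at high zinc, against 5.17, 5.13 and 4.70 at low zinc. It was below background on all 3 low-zinc arrays. The increase was 43.9-fold at the least (limma, adjusted p = 1.77e-09), and a second probe, detected on 3 of the 6 arrays, gave 2.91. The stress-inducible HSPA1A rose by 2.29 and HSPA1B by 1.78, a near-identical pair whose probes may not separate them. The HSPA6 window, chr1:161524290-161524589 (plus strand), is shown because this gene rose most among named genes outside the metallothioneins, with the heat shock element GAANNTTC or TTCNNGAA in capitals.
HSPA6 promoter: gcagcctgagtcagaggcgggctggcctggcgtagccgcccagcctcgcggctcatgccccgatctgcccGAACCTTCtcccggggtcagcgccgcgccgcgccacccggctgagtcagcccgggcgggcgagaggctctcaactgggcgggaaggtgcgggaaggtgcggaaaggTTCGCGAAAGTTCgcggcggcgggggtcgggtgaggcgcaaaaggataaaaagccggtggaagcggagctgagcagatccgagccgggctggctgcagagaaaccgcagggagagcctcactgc
It holds 3 matches, the last 2 of which overlap, and none to the metal response element core. Of the 11 HSP70 and HSP110 genes with a RefSeq promoter here, 6 hold the heat shock element, which occurs in 13.5% of all promoters, 10.3% of those of named genes tested, 12.1% of those of genes that rose and 8.26% of those of genes that fell. Of 24 co-chaperones and other heat shock genes 7 rose and none fell (list median 0.20). CRYAB, a small heat shock protein, rose at least 4.11-fold from below background, DNAJA4, detected on 1 of the 3 low-zinc arrays, rose by 1.77, DNAJB1 by 1.48 and BAG3, which couples HSP70 to autophagy, by 1.58. BAG3 read 11.43, 11.60 and 11.27 at high zinc, against 9.86, 9.88 and 9.80 at low zinc.

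Probe signals for short structured RNAs made by RNA polymerase III, together with the U3 small nucleolar RNA, rose strongly. The arrays read RNA after amplification, and how fully amplification copies such RNAs was not measured. The values below are thus changes in signal. Of 15 tested 12 rose and none fell, with a list median of 2.17. SNORD3C, a U3 copy that guides cleavage of the ribosomal RNA precursor, read 10.15, 10.16 and 10.16 at high zinc, against 5.35, 5.41 and 5.73 at low zinc, a rise of 4.66 ± 0.17 (SE; limma, adjusted p = 1.1e-08). The copies SNORD3D (4.30) and SNORD3A (4.05) rose as well, and near-identical copies cannot be told apart here. RPPH1, the RNA of RNase P that trims transfer RNA precursors, read 9.31, 9.14 and 9.07 at high zinc, against 5.24, 5.47 and 5.35 at low zinc (3.82 ± 0.18, adjusted p = 7.07e-08). RN7SK, which holds the elongation factor P-TEFb inactive, rose by 3.37 and by 3.66 on a second probe. The 5S ribosomal RNA gene RNA5S9, outside this list, rose by 3.67. RMRP, the RNA of RNase MRP, rose at least 5.97-fold and the vault RNA VTRNA1-1 at least 3.02-fold, both from below background. Of the Y RNAs, RNY5 rose by 1.87, detected on 1 of the 3 low-zinc arrays, and RNY1 by 1.28. None of 15 snoRNA host genes and nuclear long non-coding RNAs passed (limma, range -0.31 to 0.36). Of 32 cytosolic ribosomal proteins 1 rose (3.12%) and 3 fell (9.38%), with a list median of -0.07. Over all genes 7.2% rose and 8.51% fell. Under the alternatives the number called ranged from 0 to 3 in the first list and from 1 to 5 in the second. The contrast with the structured RNAs was not tested.

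Immediate early genes, which cells switch on within minutes of a signal without new protein synthesis, rose broadly. Of 9 AP-1 subunits tested 7 rose and none fell (list median 1.75), and of 21 other immediate early genes 12 rose and none fell (list median 1.00). FOS read 9.42, 9.17 and 9.49 at high zinc, against 6.45, 6.44 and 6.44 at low zinc, a rise of 2.91 ± 0.11 (SE; limma, adjusted p = 1.19e-08). JUN, its partner in AP-1, read 8.24, 8.19 and 8.15 at high zinc, against 6.19, 5.82 and 6.15 at low zinc (2.14 ± 0.13, adjusted p = 5.54e-07). FOSB rose by 2.30, MAFF by 1.96, FOSL1 by 1.75 and MAFG by 0.83, FOSL1 being detected on 1 of the 3 low-zinc arrays. Among the others, the synaptic and cytoskeletal regulator ARC rose at least 2.73-fold from below background, the zinc finger EGR1 by 1.86, the matricellular proteins CCN2 by 1.67 and CCN1 by 1.33, and ZFP36, which destabilises cytokine transcripts, by 1.13. Of 11 MAP kinase phosphatases and Sprouty family inhibitors, which dampen this signalling, 4 rose and none fell, led by DUSP1 (1.65). In the small group of EGF receptor ligands and receptors (7 tested) 2 rose and 3 fell. The ligand HBEGF read 8.10, 8.07 and 8.03 at high zinc, against 5.72, 5.84 and 5.95 at low zinc (2.23 ± 0.10, adjusted p = 3.88e-08), while the receptor ERBB3 fell by 0.65 and LRIG1, which promotes receptor degradation, by 0.45.

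Cytoskeletal and BMP-linked genes rose in smaller steps. Of 19 targets of SRF and YAP, factors that respond to actin tension, 10 rose and none fell (list median 0.41). Smooth muscle actin ACTA2 read 7.83, 7.90 and 7.73 at high zinc, against 5.67, 5.89 and 5.68 at low zinc (2.07 ± 0.17 SE; limma, adjusted p = 8.11e-06), the actin-binding TAGLN rose by 1.86, ANKRD1 by 1.56 and FHL2 by 1.19. Of 11 SMAD and ID genes of BMP signalling 7 rose and none fell, a count that ranged from 3 to 7 without each array in turn. ID1, an inhibitor of basic helix-loop-helix factors, read 9.35, 9.17 and 9.11 at high zinc, against 7.82, 7.87 and 8.13 at low zinc (1.27 ± 0.18, adjusted p = 5.76e-04).

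Stress-response genes rose in several branches. In the ATF4 list, the arm that responds to amino acid shortage and phosphorylated eIF2α, 12 of 19 rose and 1 fell (list median 0.43). ATF3 read 10.66, 10.58 and 10.51 at high zinc, against 8.70, 8.70 and 8.71 at low zinc, a rise of 1.88 ± 0.08 (SE; limma, adjusted p = 3.29e-08). The mTORC1 inhibitor DDIT4 rose by 1.76, PPP1R15A, which restores translation, by 1.64, and the pro-apoptotic DDIT3 by 1.34, while CBS of cysteine synthesis fell by 0.68. SESN2, which senses leucine, rose by 1.03. In the list for the unfolded protein response of the endoplasmic reticulum 6 of 18 rose and 1 fell, led by DNAJC3 (1.14), and the number called ranged from 3 to 8 under the alternative settings. Of 24 genes driven by NRF2, which answers oxidative stress, 9 rose and none fell (list median 0.23). The cystine importer SLC7A11 read 6.38, 6.43 and 6.64 at high zinc, against 4.95, 4.74 and 4.95 at low zinc, below background, and rose at least 2.42-fold (adjusted p = 6.3e-06). HMOX1, haem oxygenase, rose by 1.32, GCLM of glutathione synthesis by 0.95 and TXNRD1 by 0.69.

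Growth arrest and hypoxia genes gave mixed lists. Of 26 growth arrest and p53-linked stress genes 8 rose and 3 fell, and the number called ranged from 7 to 11 without each array in turn, the lowest without high-zinc MTF1 siRNA replicate 1. GADD45B read 9.08, 9.46 and 9.37 at high zinc, against 6.17, 6.25 and 5.65 at low zinc, a rise of 3.28 ± 0.22 (SE; limma, adjusted p = 1.42e-06), the cell cycle inhibitor CDKN1A rose by 1.43 and GDF15, a secreted stress cytokine, by 1.08, while CDKN1C fell by 0.94. Of 21 hypoxia-responsive HIF targets 10 rose and 2 fell. ADM, a vasodilator peptide, read 11.78, 11.81 and 11.57 at high zinc, against 9.76, 9.63 and 9.96 at low zinc (1.94 ± 0.11, adjusted p = 2.68e-07), and the glycolytic regulator PFKFB3 rose by 1.15. Carbonic anhydrase CA12, detected on 1 of the 3 high-zinc arrays, fell by 0.84, a call lost under 2 of the alternative settings.

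**Figure D3:**
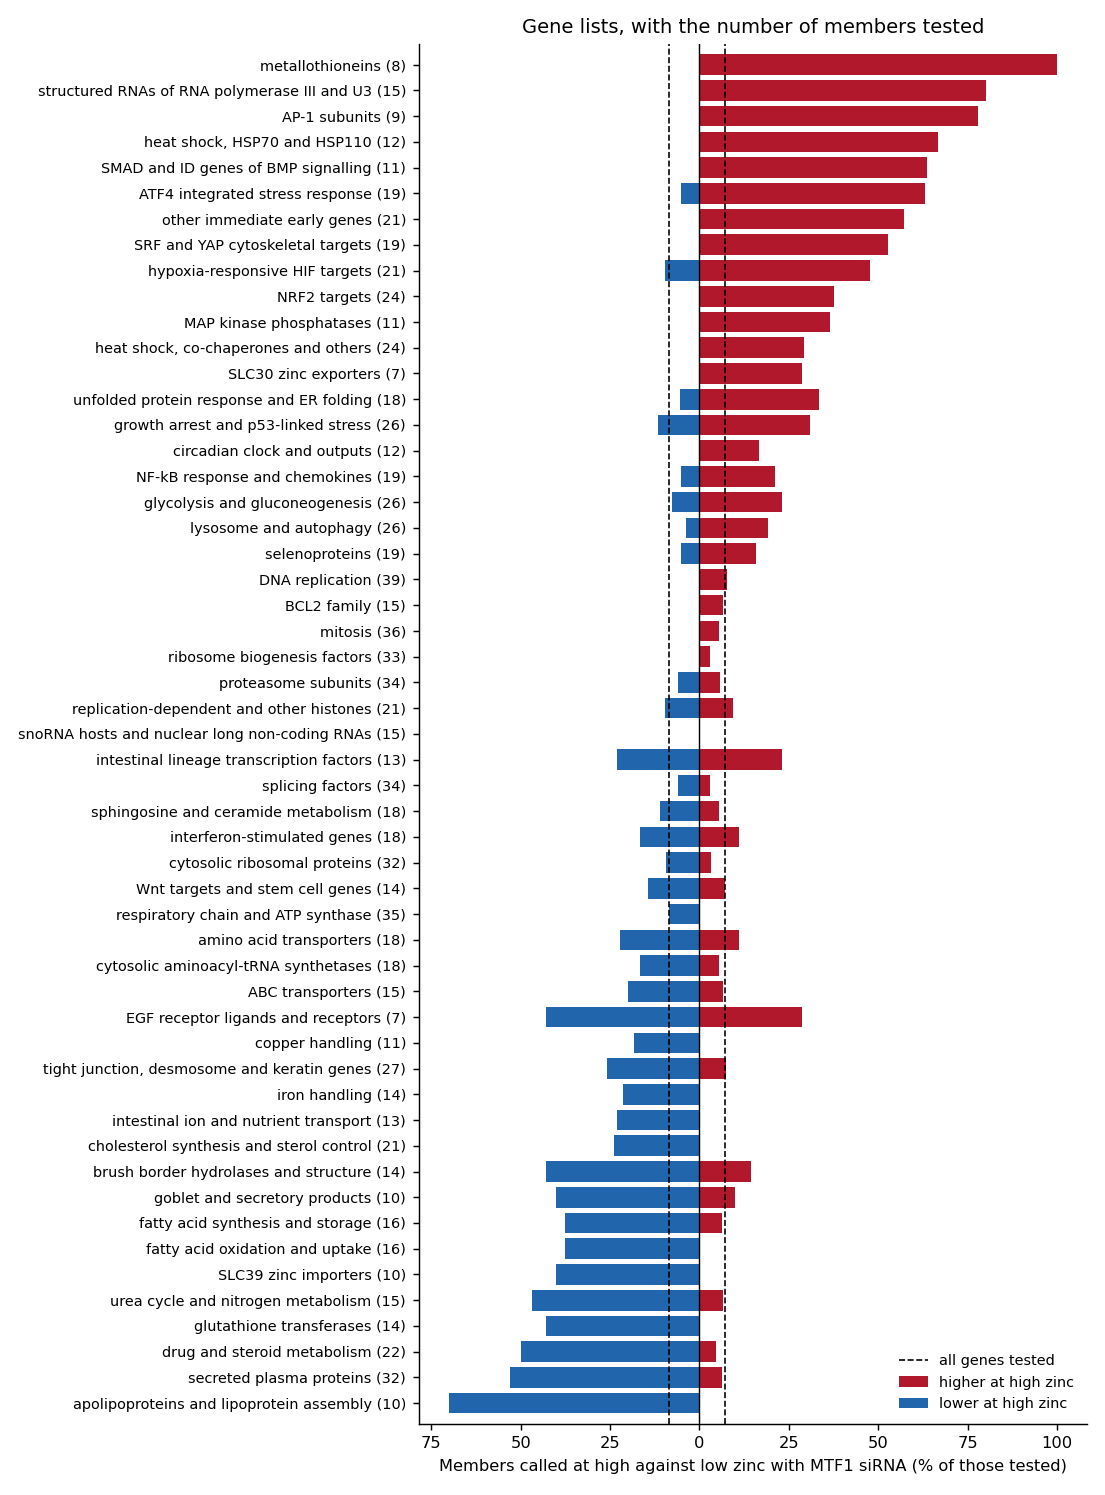
For each gene list, the share of its tested members that rose (red, right) and fell (blue, left) at high against low zinc with MTF1 siRNA, in percent, with the number tested in brackets. Dashed lines mark the same shares over all genes tested, 7.2% and 8.51%; metallothioneins, structured RNAs, AP-1 and HSP70 genes lie at the top, and apolipoproteins, plasma proteins and drug-metabolising genes at the bottom.

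Genes of lipoprotein assembly and of secreted plasma proteins, which differentiating Caco-2 cells make as liver and small intestine do, fell at high zinc. Among 10 apolipoproteins and lipoprotein assembly genes 7 fell and none rose (list median -0.72), and among 32 secreted plasma proteins 17 fell and 2 rose (list median -0.69). MTTP, which loads lipid onto APOB, read 4.75, 4.97 and 5.18 at high zinc, where no array detected it, against 7.60, 7.21 and 7.30 at low zinc, and was at least 4.45-fold lower (limma, adjusted p = 8.06e-06). APOB, the core protein of chylomicrons, read 8.09, 8.31 and 8.20 at high zinc, against 9.85, 9.80 and 9.79 at low zinc, and fell by 1.61 ± 0.09 (SE; adjusted p = 2.71e-07). APOC3 fell by 1.28 and APOA1, of high-density lipoprotein, by 0.55. Outside the list, the cholesterol exporter ABCA1 fell by 1.93.

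The plasma proteins that fell included inhibitors, clotting factors and carriers. SERPINF2, the inhibitor of plasmin, read 5.27, 4.89 and 4.89 at high zinc, against 6.70, 6.95 and 7.13 at low zinc, and fell by 1.91 ± 0.15 (SE; limma, adjusted p = 5.71e-06). It was detected on 1 of the 3 high-zinc arrays, as was KNG1, so that these sizes rest in part on background. The fibrinogen chains FGG and FGB fell by 1.33 and 1.20, with second probes at -1.23 and -0.56. Antithrombin (SERPINC1) fell by 1.26, kininogen (KNG1) by 1.26, alpha-fetoprotein (AFP) by 1.21, AHSG by 1.15 and albumin (ALB) by 0.89. AFP read 11.39, 11.52 and 11.54 at high zinc, against 12.78, 12.62 and 12.70 at low zinc, so a bright probe fell as well as dim ones. C4BPB, a complement regulator, rose by 0.75.

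Metabolic enzymes of the same kind fell. Of 22 drug and steroid metabolism genes 11 fell and 1 rose (list median -0.47), of 14 glutathione transferases 6 fell and none rose (list median -0.47), and of 15 urea cycle and nitrogen metabolism genes 7 fell and 1 rose (list median -0.32). CPS1, the first enzyme of the urea cycle, read 6.78, 6.93 and 6.75 at high zinc, against 9.05, 9.08 and 9.13 at low zinc, and fell by 2.27 ± 0.10 (SE; limma, adjusted p = 3.06e-08). SULT2A1, which sulfates steroids and bile acids, read 5.93, 5.50 and 5.71 at high zinc, against 7.82, 7.76 and 7.72 at low zinc (-2.05 ± 0.14, adjusted p = 1.2e-06). HSD17B2, which inactivates oestradiol and testosterone, fell by 2.00 and was detected on 1 of the 3 high-zinc arrays. The glutathione transferases GSTA2 and GSTA1, close paralogs whose probes may overlap, fell by 2.01 and 1.65, GSTM1 by 1.21 and GSTM2 by 1.03. Glutamate dehydrogenase GLUD1 fell by 1.02 and the retinal dehydrogenase ALDH1A1 by 0.97, while SAT1, which breaks down polyamines, rose by 1.11. GSR, which regenerates the glutathione that these transferases use, rose by 0.67.

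**Figure D4:**
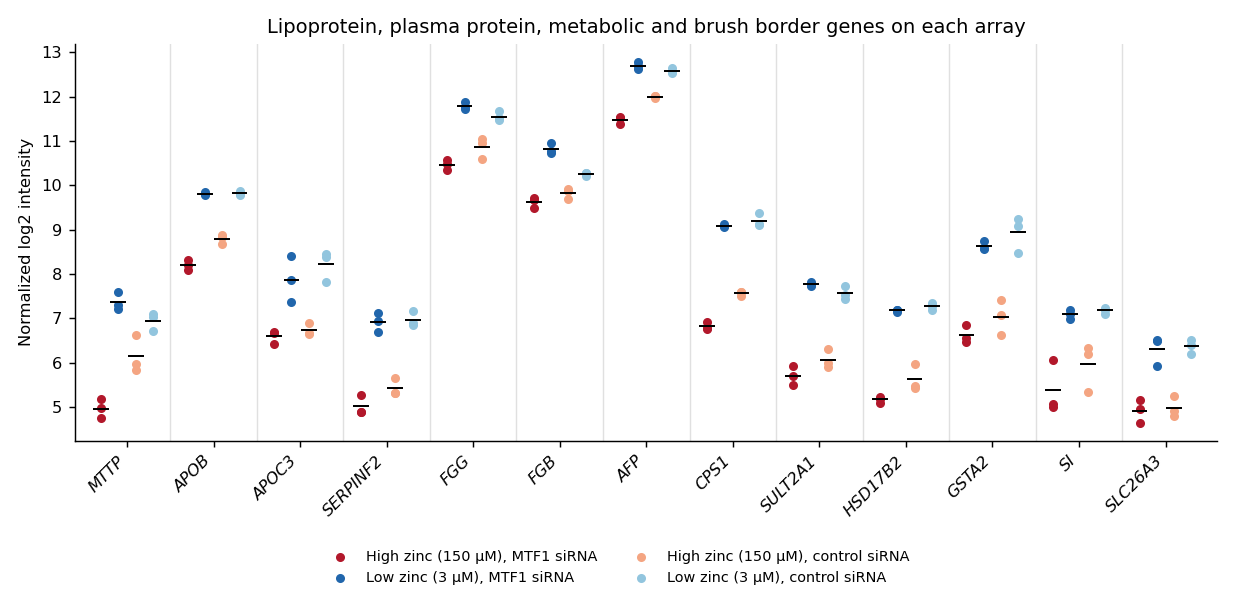
Normalized log2 intensity on each of the 12 arrays for lipoprotein, plasma protein, metabolic and brush border genes that fell, with group means as bars and groups in the order high zinc and low zinc with MTF1 siRNA, then high zinc and low zinc with control siRNA. The high-zinc arrays with MTF1 siRNA lie below all low-zinc arrays with MTF1 siRNA for each gene shown, and MTTP was not detected on any of them.

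Genes of the intestinal surface and secretion fell more often than they rose. Of 14 brush border genes 6 fell and 2 rose (list median -0.42). Of 13 ion and nutrient transporters 3 fell and none rose (list median -0.35). Of 10 goblet and secretory products 4 fell and 1 rose (list median -0.32). Over all genes tested 8.51% fell and 7.2% rose, and the contrast of these short lists with those shares was not tested. The number of transporters called ranged from 3 to 6 under the alternative settings. Sucrase-isomaltase (SI) read 6.06, 5.00 and 5.07 at high zinc, against 7.18, 6.98 and 7.10 at low zinc, the first high-zinc array standing apart from the other two, and fell by 1.71 ± 0.28 (SE; limma, adjusted p = 0.00156). SI was detected on 1 of the 3 high-zinc arrays. The brush border motor MYO1A fell by 1.35, and the peptidase MME rose by 0.85. The chloride exchanger SLC26A3 was at least 2.13-fold lower at high zinc, where no array detected it, the vitamin C transporter SLC23A1, detected on 1 of the 3 high-zinc arrays, fell by 1.57 and the chloride channel CFTR by 1.04. TFF3, a mucus-stabilising peptide, read 7.91, 7.71 and 7.66 at high zinc, against 8.89, 9.30 and 9.48 at low zinc (-1.47 ± 0.20, adjusted p = 3.87e-04). Of 13 intestinal lineage transcription factors 3 rose and 3 fell, with KLF4 at 1.01 and FOXA1 at -0.59. Of 27 tight junction, desmosome and keratin genes 7 fell and 2 rose, with CLDN3 at -0.88 and KRT18 at 0.86.

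Lipid metabolism followed in part. Of 16 fatty acid synthesis and storage genes 6 fell and 1 rose, of 16 fatty acid oxidation genes 6 fell and none rose, and of 21 cholesterol synthesis genes 5 fell and none rose. The sterol reductase TM7SF2 fell by 1.39, GPAM, which starts glycerolipid synthesis, by 0.82, and HADHB of fatty acid oxidation by 0.64. The count for cholesterol genes ranged from 3 to 5, and that for fatty acid synthesis from 3 to 7, without each array in turn. SGPP2, a phosphatase of sphingosine phosphate, fell by 1.89 (5.51, 5.54 and 5.19 at high zinc, against 7.45, 7.25 and 7.21 at low zinc) and was detected on 2 of the 3 high-zinc arrays, whereas SPHK1, the kinase that makes sphingosine phosphate, rose at least 1.79-fold from below background.

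Growth and housekeeping lists held few genes that passed in the fit reported here. Of 36 mitosis genes 2 rose and none fell, of 39 DNA replication genes 3 rose and none fell, of 35 respiratory chain and ATP synthase genes 3 fell and none rose, of 34 proteasome subunits 2 rose and 2 fell, and of 34 splicing factors 1 rose and 2 fell. In that fit these shares lie near or below the 7.2% and 8.51% of all genes. Under the alternatives the number called ranged from 1 to 9 for mitosis, 3 to 10 for DNA replication, 2 to 9 for the respiratory chain, and 1 to 6 each for proteasome subunits and splicing factors. The chemokine CXCL12 read 8.00, 7.98 and 8.07 at high zinc, against 10.07, 9.93 and 9.95 at low zinc, and fell by 1.96 ± 0.09 (SE; limma, adjusted p = 7.07e-08), in a list of 19 NF-kB response genes of which 4 rose and 1 fell. The cytokine IL32 of that list rose by 1.30. Of the remaining genes that fell most, RHBDL3, a rhomboid protein, fell by 1.86, the uroplakin UPK1A by 1.83 and NYNRIN by 1.70, and SLC23A3 was at least 2.72-fold lower.

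Markers of other cell types also moved with zinc. Of 5 immune markers tested, CSF1R, the receptor for macrophage colony-stimulating factor, read 8.60, 8.52 and 8.68 at high zinc, against 5.76, 5.96 and 5.73 at low zinc, a rise of 2.78 ± 0.16 (SE; limma, adjusted p = 2.68e-07). Lysozyme (LYZ), which gut epithelium also makes, fell by 0.73, and PTPRC, CD3D and ITGAM were detected on none of the 6 arrays. Intensities were also summed over all members of a list with a probe. The sums take in members detected on none of the 6 arrays, 6 of 14 immune, 3 of 13 fibroblast and 5 of 9 endothelial markers. They are thus in part background. The summed intensity of the immune list ranged from 1557 to 1641 at high zinc and from 1494 to 1689 at low zinc. That of the fibroblast list ranged from 1996 to 2212 at high zinc and from 1494 to 1678 at low zinc. Of its 9 members tested COL1A2 rose by 1.00, COL6A3 fell by 0.67 and 7 did not pass. The sum of the endothelial list ranged from 315.2 to 358.2 at high zinc and from 243.4 to 266.1 at low zinc. Only 2 of its members were tested, ESAM, at least 1.91-fold higher, and CDH5, higher by 0.83. The sum of the epithelial list ranged from 52420 to 53110 at high zinc and from 53670 to 60970 at low zinc. The part of other cells in these results was not tested. In such samples of many cells, fewer cells of a kind and less RNA per cell cannot be told apart.

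The study also exposed cells with control siRNA to the same zinc concentrations, which allows a test of whether MTF1 siRNA altered the response. Zinc changed 2573 genes with control siRNA (18%), 8.62% of genes upward and 9.39% downward, and no array is shared between the comparisons. Of the 2244 genes called with MTF1 siRNA, 50.3% were called in the same direction with control siRNA, which is 43.9% of the genes called there. A further 1107 were called with MTF1 siRNA and not with control siRNA, and 919 of those had the same sign with control siRNA, so a call in 1 comparison alone does not show a difference. The difference between the responses, tested in the same fit, passed for 3 genes (0.021%), with 2278 at an unadjusted p under 0.05. That count depends on the processing. It was 146 without background correction, 117 with the authors' log2 values, 101 with a mean-variance trend and robust estimation, changed together, and 1 with arrays centred on their median, no filter on dim probes or the replicate block.

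MT1B and MT1M responded less with MTF1 siRNA than with control siRNA. All 8 metallothioneins averaged lower at high zinc with MTF1 siRNA than at high zinc with control siRNA, by log2 differences (control minus MTF1 siRNA) of 0.25 to 2.87, which is a count of means and not a test. MT1B averaged 7.81 ± 0.03 at high zinc with MTF1 siRNA, against 10.68 ± 0.26 at high zinc with control siRNA (SD, n = 3), and was not detected at low zinc with either. Its response was smaller by a log2 difference of -2.74 ± 0.17 (SE; limma, adjusted p = 4.22e-05), a call kept under all the alternatives run. MT1M averaged 9.10 ± 0.10 at high zinc with MTF1 siRNA, against 11.41 ± 0.30 with control siRNA, with a difference between responses of -1.78 ± 0.23 (adjusted p = 0.0381). MT1M was detected on none of the 3 low-zinc arrays with MTF1 siRNA and on 1 of 3 with control siRNA. EMP3, a tetraspan membrane protein, read 9.26, 9.32 and 9.05 at high zinc, against 7.64, 7.54 and 7.74 at low zinc with MTF1 siRNA. It rose by 1.57 with MTF1 siRNA and by 0.53 with control siRNA, a difference of 1.04 ± 0.14 (adjusted p = 0.0381). The calls for MT1M and EMP3 were lost with arrays centred on their median (adjusted p = 0.0518 for each), with no filter on dim probes (0.109 and 0.139) and with the replicate block (0.14 for each). Without each array in turn both ranged from adjusted p = 0.0412 to 0.179, MT1M passing without low-zinc MTF1 siRNA replicate 3 or low-zinc control replicate 3 and EMP3 without low-zinc or high-zinc MTF1 siRNA replicate 3. For the other 6 metallothioneins the difference ran from -0.06 for MT1H to 1.21 for MT1X and did not pass. It was positive for 5 of the 8. As all 8 averaged lower at high zinc with MTF1 siRNA, a positive value means that the low-zinc mean was lower still by comparison. For these 5 genes a response as large or larger is thus a ratio to a lower starting level. It does not show a level unaffected by the siRNA. SLC30A1 had a difference of -0.49 (adjusted p = 0.175) and SLC30A2 of -1.17 (adjusted p = 0.168).

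**Figure D5:**
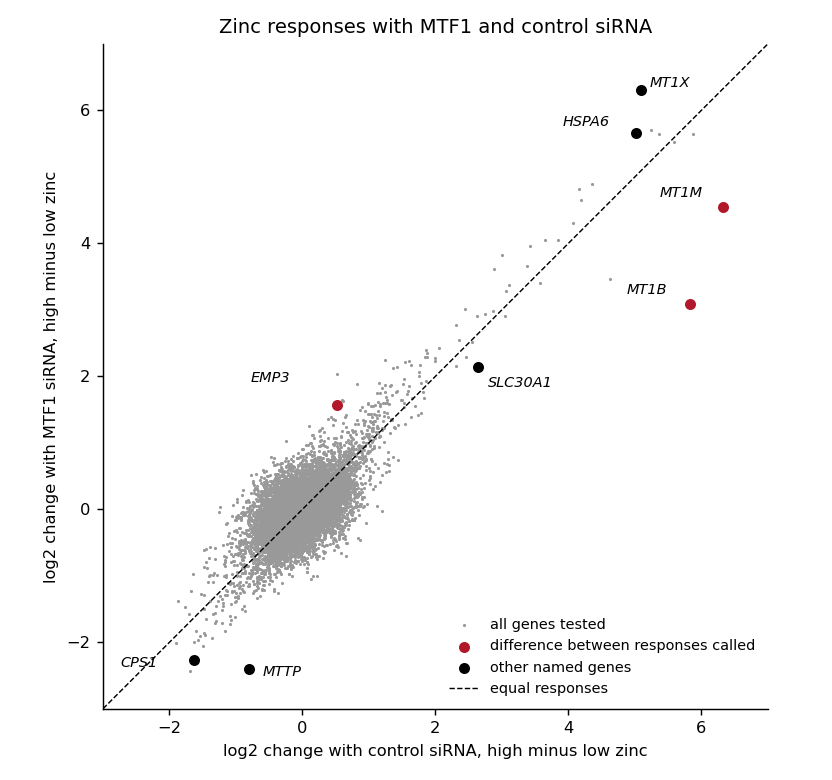
The log2 change at high minus low zinc with MTF1 siRNA (vertical) against that with control siRNA (horizontal) for all 14285 genes tested, with the line of equal responses dashed. Genes whose responses differed in the test (MT1B, MT1M and EMP3) are in red and other named genes in black; MT1B and MT1M lie below the line and EMP3 above it.

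Genes called in opposite directions by zinc with the 2 siRNAs numbered 8, of which 4 are named. POLR3K, a subunit of RNA polymerase III, rose by 0.41 with MTF1 siRNA and fell by 0.53 with control siRNA, and ATP6V1F, of the proton pump of lysosomes, rose by 0.49 and fell by 0.35. LSM14B and ZBTB2 fell with MTF1 siRNA by 0.38 and 0.39 and rose with control siRNA by 0.34 and 0.55. At high zinc with MTF1 siRNA, LSM14B was detected on 1 of 3 arrays and ZBTB2 on 2 of 3, and LSM14B was detected on 0 of 3 low-zinc arrays with control siRNA. None of the 4 differences passed (limma, adjusted p from 0.106 to 0.126), and the calls with MTF1 siRNA of POLR3K, LSM14B and ZBTB2 were lost under 6 to 17 alternatives. Lists whose counts differed most between the comparisons were the respiratory chain and mitosis, picked for that difference out of 57 lists. Of 35 respiratory chain genes 3 fell with MTF1 siRNA (8.57%) and 17 with control siRNA, beside 8.51% and 9.39% of all genes. Of 36 mitosis genes 2 rose with MTF1 siRNA (5.56%) and 12 with control siRNA, beside 7.2% and 8.62% of all genes. No member of either list passed the test of the difference, and both counts with MTF1 siRNA moved by over 1.5 times under alternative settings.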

How the data were processed

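Total RNA (200 ng per sample) was amplified, biotin-labelled and hybridised to 12 Illumina HumanHT-12 V4 arrays, 1 sample each, per the labels' protocols. The deposited table held bead-summarized probe intensities, not normalized per the file headers, and a detection p-value per probe per the file headers. A second deposited table held the authors' processed log2 values, whose 12 array medians were all about 7.03 and whose ranks were those of the intensities. Its scale and centring were read from the values. No source used here names the scanner software or the method of bead summarization.

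Sample titles gave each array's group and number. Although the design text of the series mentions ZNF658, its title and every sample name MTF1, which was followed. Intensities were background-corrected by normexp from the detection p-values, with an offset of 16, quantile normalized and brought to log2 (neqc of limma 3.58.1, R 4.3.3). Probes detected (p-value under 0.05) on every array of at least 1 group entered, 17413 in all, and a gene was read from its entering probe of highest mean. Of 47323 probes 30113 carry 1 symbol in the platform annotation, 8 several and 17202 none; 30074 were updated by gene identifier, and the 3701 entering probes without 1 symbol were tested unnamed. The linear model (lmFit, eBayes) had a mean for each of the 4 groups over all 12 arrays, with two-sided p-values adjusted by the Benjamini-Hochberg method over 14285 features.

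Named were the 15 genes that rose and 15 that fell most with arrays not overlapping, the 4 largest changes or all calls of a described list, and the metallothioneins, MTF1, SLC30A1, SLC30A2 and SLC39A10. For the difference, the rule took genes past the threshold or the 5 of smallest p-value, and genes called in opposite directions. The comparison, lists and rules were chosen with earlier results of these data known, so no list is independent support. On simulated data for this comparison, over 14285 genes, the test found 31 of 67 changes of 1.5-fold, 66 of 67 of 2-fold and 66 of 66 of 4-fold. For the difference it found 6 of 67, 37 of 67 and 65 of 66. Unchanged genes called numbered 10 and 7. Only these genes were changed in the simulation, in the high-zinc MTF1 siRNA group alone, with independent normal noise of the fitted spread. In the data 15.7% of genes were called for the zinc response, a share that alters the adjustment, so the rates need not hold there. The number of arrays limits the precision. The closing section gives the effect of 10 alternative settings and of leaving out each of the 12 arrays. Promoters were those listed first for a gene in the RefSeq table (GRCh38.p14), which held 8535 of the 10584 named genes tested.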

Additional observations from a re-analysis of the deposited data

Results flagged for a closer look

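MT1B, MT1M and EMP3 stood out because the zinc response with MTF1 siRNA differed from that with control siRNA by the test of the difference itself. The difference, on the log2 scale, was -2.739 for MT1B (limma, adjusted p = 4.22e-05), -1.775 for MT1M (0.0381) and 1.044 for EMP3 (0.0381). At low zinc MT1B was below background with either siRNA, and MT1M was above it on none of 3 low-zinc arrays with MTF1 siRNA and on 1 of 3 with control siRNA.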

How the results depend on the processing

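The number of genes called by zinc with MTF1 siRNA (2244) was 1506 with no filter on dim probes, 2792 with array weights, 2055 with the replicate block and 1555 to 2335 without each array in turn. Arrays centred on their median gave 1041 higher and 978 lower, against 1028 and 1216. Of 322 named or listed genes called, 232 kept the call under every alternative run and 234 without each array in turn, and none reversed. MTF1, not called (-0.17), ran from -0.437 to 0.03218 without each array in turn, and turned to 0.0169 without low-zinc MTF1 siRNA replicate 1 and to 0.03218 without high-zinc MTF1 siRNA replicate 3. Of 57 list counts 25 moved by over 1.5 times in some setting. Among them were glycolysis (8 called, 2 to 9), proteasome subunits (4, 1 to 6), lysosome and autophagy (6, 0 to 8) and aminoacyl-tRNA synthetases (4, 0 to 4 without each array in turn). Without background correction changes of dim probes shrank: MT1B rose by 1.312 in place of 3.093, and MT1M by 2.383 in place of 4.549.

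With control siRNA the count (2573) was 1540 with no filter on dim probes and 1607 to 2589 without each array in turn, lowest without low-zinc control replicate 1 (1607) and high-zinc control replicate 3 (1682). The difference between the responses (3 genes) gave 146 without background correction, 117 with the authors' log2 values, 101 with a mean-variance trend and robust estimation changed together, 1 with median centring, no filter or the replicate block, and 1 to 9 without each array in turn, the highest without low-zinc MTF1 siRNA replicate 3. All 101 genes of that setting were also called without background correction and with the authors' values, and they include the 3. The authors' values rank as the uncorrected intensities do, so those 2 settings are alike, and all settings use the same arrays. The overlap is thus no separate support. The lower MTF1 at high zinc (-0.9774) did not pass with no filter (adjusted p = 0.129), the replicate block (0.0825) or only the 2 groups compared (0.0984), and ran from -1.241 to -0.772 without each array in turn (adjusted p 0.0419 to 0.141). It passed at a smaller size without background correction (-0.3663; limma, adjusted p = 0.0148) and with the authors' log2 values (-0.3989, 0.0136). The causes were not tested. With each gene's group mean subtracted, what was left of same-numbered samples of different groups correlated at -0.0974 to 0.144. It correlated best with its own number in 9 of 24 cases, so the numbers were not taken to pair samples.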

Other observations

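Genes whose responses differed under all 3 of the more permissive settings (no background correction, the authors' log2 values, a mean-variance trend with robust estimation) were looked at after those counts were seen. They numbered 101, of which 87 are named, and apart from MT1B, MT1M and EMP3 none passed in the fit reported above. The difference, MTF1 siRNA minus control siRNA, was positive for 78 and negative for 23. Of the 68 named genes with a positive difference, 27 rose and 0 fell with MTF1 siRNA, and 2 rose and 42 fell with control siRNA. Of the 19 with a negative difference, 2 rose and 14 fell with MTF1 siRNA, and 5 rose and 8 fell with control siRNA. Selection by this difference favours these directions in advance, so the counts describe the selection and are no separate result. Over all genes tested 7.2% rose and 8.51% fell with MTF1 siRNA, and 8.62% rose and 9.39% fell with control siRNA. The genes below were picked from these after their values were seen. Among those lower with control siRNA, NAA38 changed by -0.04 with MTF1 siRNA and by -1.25 with control siRNA (limma, adjusted p of the difference = 0.161), COX16 by -0.09 and -0.80 (0.161) and FAAP20 by 0.07 and -1.04 (0.168). MTTP changed by -2.40 with MTF1 siRNA and by -0.80 with control siRNA (0.106), and since none of the 3 high-zinc arrays with MTF1 siRNA detected it, the first value rests on background. FGB changed by -1.20 and -0.43 (0.106), AFP by -1.21 and -0.58 (0.125), APOB by -1.61 and -1.02 (0.161) and ALDH1A1 by -0.97 and -0.41 (0.168). Among genes higher with MTF1 siRNA, the natriuretic peptide NPPB changed by 2.25 with MTF1 siRNA and by 1.25 with control siRNA (0.106), the atrial myosin light chain MYL7 by 2.04 and 0.52 (0.154) and the calcium-binding S100P by 1.39 and 0.43 (0.172). HSPA4, a constitutive HSP110 family member, changed by 0.04 with MTF1 siRNA and by 0.91 with control siRNA (0.172).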
